A study of Arabidopsis thaliana with 24 samples.

Results

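Primed pif7-1 seedlings of Arabidopsis thaliana were compared with naive pif7-1 seedlings, both kept in white light until harvest, to ask what an earlier bout of shade left behind in the transcriptome when the line lacks PIF7. The comparison used 4 of the 24 libraries of the series: 2 primed and 2 naive, picked by their sample titles. Plants read shade as a low ratio of red to far-red light, which the phytochromes sense. Low ratios release PHYTOCHROME INTERACTING FACTORS (PIFs), bHLH transcription factors that switch on growth genes and, with them, brakes such as HFR1. PIF7 is a main driver of that response in seedlings.

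Whole seedlings were sampled. All groups were 4 days old at the start. Primed seedlings then spent 8 h in shade at a ratio of about 0.5 and naive seedlings 8 h in white light, and both recovered for 40 h in white light. The white light libraries received no shade after recovery, while the shade libraries of the series received 1 h of it. That hour was the first shade for naive and the second for primed seedlings. The genotypes were Col-0 (WT), pif7-1 and ref6-1, a line named for the histone demethylase gene REF6. A single pif7 allele was studied, and no rescue line was analysed here.

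The primed and the naive pif7-1 libraries were deposited at different times. The 8 naive libraries of both mutants form a later block of sample records, which carry neither the condition field nor the description of the other 16, whereas all WT libraries belong to the earlier block. In pif7-1, priming and the time of deposit therefore coincide and cannot be told apart. Neither harvest nor sequencing dates were given in the sources used here, and the labels do not say whether the 2 replicates of a group were separate cultures, so p-values measure only the spread between these samples. Values are TPM, a measure scaled for gene length and library total, and they keep no read counts, so the depth is unknown.

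Across genes, log2 values of the 2 naive replicates correlated with r = 0.979 and those of the 2 primed replicates with r = 0.978, while naive and primed libraries correlated with r from 0.972 to 0.977. Primed and naive pif7-1 libraries were thus nearly as alike as replicates. In WT the corresponding values for naive against primed were 0.955 to 0.961. Replicates of the same group had r from 0.961 to 0.985 over the 12 groups of the series, and the values of the WT replicates alone are not given here. Mitochondrial transcripts summed to between 77.5 and 84.8 TPM and plastid transcripts to between 2182 and 3996 TPM in the 4 libraries. The marker genes of flowers and pollen were low, with 4 of 7 under 1 TPM in all 4 libraries, and seed storage genes stood out in naive replicate 1, where the cruciferin gene CRA1 was at 44.9 TPM against 0.81 to 3.71 TPM in the other 3. Root markers were present, as whole seedlings should have them, and summed to 64.6 to 91.5 TPM in naive and 80.9 to 88.5 TPM in primed libraries.

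PIF7 (AT5G61270) stood at 3.03 and 2.71 TPM in naive and 2.02 and 2.52 TPM in primed pif7-1 libraries, against 54.9 to 76.6 TPM in the 4 WT white light libraries. REF6 stood at 10.9 and 9.86 TPM in naive and 12.4 and 11.0 TPM in primed pif7-1 libraries. PIF7 was low on both sides of the comparison, and neither gene passed the test between them.

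Few genes differed between primed and naive pif7-1 seedlings. Of 21473 genes tested, 28 passed at an adjusted p under 0.05 (0.13%), 8 higher in primed libraries (0.0373%) and 20 lower (0.0931%). The test was limma on log2(TPM + 1) with Benjamini-Hochberg adjustment, and the same settings hold for each adjusted p below. Among the passing genes, 21 differed by more than 2-fold. At an unadjusted p under 0.05 there were 1359 genes, 787 higher and 572 lower. The 95% interval of a typical log2 fold change reached 0.37 to either side, and the smallest change that passed was 0.66. The count rested on the spread of all 12 groups of the series: with only the 4 libraries compared, limma passed 0 genes (2077 at an unadjusted p under 0.05). Leaving out any 1 of the 4 libraries left 1 library in a group. In each such fit only a minority of the 28 passed, and other genes passed beside them. All 28 kept their direction in each alternative that gave them a value, 13 or 14 per gene.

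**Figure D1:**
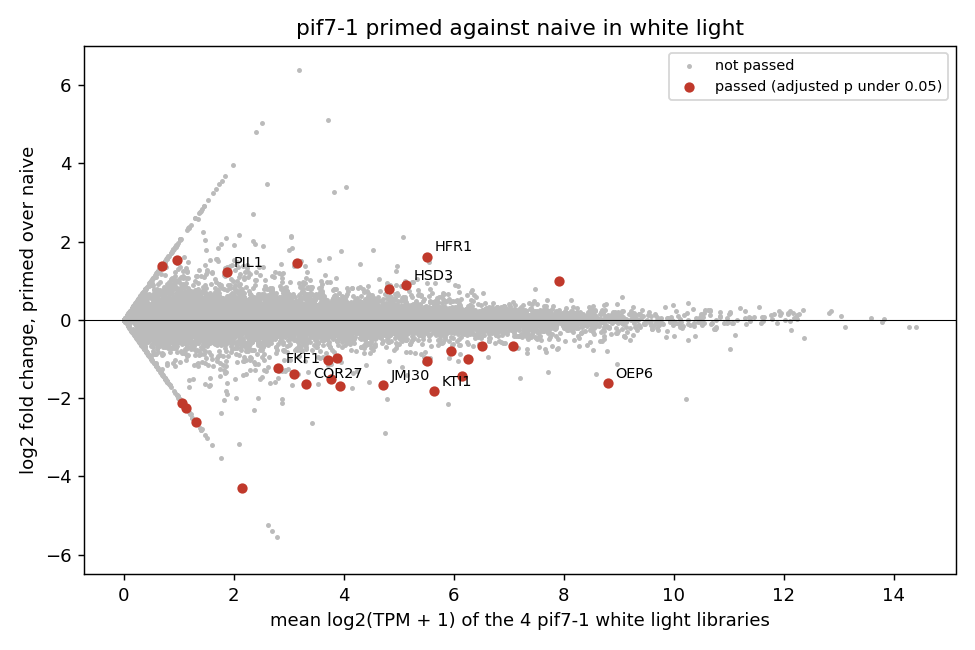
Log2 fold change of primed over naive pif7-1 seedlings in white light (vertical axis) against the mean log2(TPM + 1) of the 4 libraries (horizontal axis), 1 point per gene tested. The 28 genes that passed are red, 8 above the line at 0 and 20 under it, among 21473 genes.

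The highest log2 fold change among the passing genes belonged to HFR1, an atypical bHLH factor that binds PIFs and restrains shade growth. HFR1 was at 26.1 and 24.3 TPM in naive and 72.5 and 85.8 TPM in primed libraries, a 3.14-fold difference of means (log2 fold change 1.61 ± 0.24 SE, adjusted p = 0.00756). Both primed libraries lay far above both naive ones. PIL1, a bHLH gene that shade induces within an hour, was at 1.57 and 1.24 TPM in naive and 4.27 and 4.87 TPM in primed libraries (log2 fold change 1.21 ± 0.16 SE, adjusted p = 0.0031). The same 2 genes passed as higher in primed WT, at log2 fold changes of 1.00 for HFR1 (adjusted p = 0.0181) and 0.53 for PIL1 (adjusted p = 0.0487). The pif7-1 and WT effects did not differ past the threshold for HFR1 (difference 0.61, adjusted p = 0.362) or PIL1 (difference 0.68, adjusted p = 0.142).

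After 1 h of shade at the end of recovery the pair parted. HFR1 was at 144 and 160 TPM in naive and 274 and 359 TPM in primed pif7-1 libraries (log2 fold change 1.04, adjusted p = 0.00942). PIL1 reached 49.2 and 51.5 TPM in naive and 47.9 and 53.0 TPM in primed libraries, with overlapping groups. The primed excess of HFR1 was thus present in other libraries too, while the level of PIL1 in shade was about the same for both histories (log2 fold change 0.0018).

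The other 14 of 16 early shade genes tested did not pass, and the median log2 fold change of the list was 0.08, against 0.03 over all genes. The HD-ZIP gene ATHB2, a rapid shade target, was at 13.7 and 15.2 TPM in naive and 18.7 and 25.7 TPM in primed libraries (unadjusted p = 0.00427). BBX28 was at 57.4 and 62.1 TPM in naive and 72.5 and 84.9 TPM in primed libraries (unadjusted p = 0.0302). IAA29, PRE1, HAT1, HAT3 and PAR1 had log2 fold changes between -0.12 and 0.03. None of the 7 PIF genes passed, with 1 at an unadjusted p under 0.05: PIF4, at 78.2 and 77.9 TPM in naive and 94.5 and 109 TPM in primed libraries (log2 fold change 0.38 ± 0.17 SE). In WT, PIF4 passed as higher, from 29.8 and 40.8 TPM to 82.4 and 73.1 TPM (log2 fold change 1.13, adjusted p = 0.00117). Naive pif7-1 and primed WT libraries had similar PIF4 values, but that comparison crosses both genotype and block of records and was not tested. The WT and pif7-1 effects did not differ past the threshold (difference -0.76, adjusted p = 0.134).

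The evening arm of the circadian clock held 2 of the genes that passed as lower in primed pif7-1. The plant clock runs on morning genes such as CCA1 and LHY and on evening genes that repress them, and the levels of both depend strongly on the hour. JMJ30 (also named JMJD5), a Jumonji-domain demethylase gene with an evening peak, was at 48.9 and 42.8 TPM in naive and 13.4 and 14.0 TPM in primed libraries (log2 fold change -1.67 ± 0.30 SE, adjusted p = 0.0347). FKF1, a blue light receptor of the flowering pathway, was at 10.7 and 8.94 TPM in naive and 3.35 and 3.78 TPM in primed libraries (log2 fold change -1.24 ± 0.19 SE, adjusted p = 0.0119); it overlaps another annotated gene. Naive and primed libraries were well apart for both. The call for JMJ30 was kept in 5 of 14 alternatives and that for FKF1 in 8 of 14.

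These were the 2 of 12 evening clock genes that passed (4 of 12 under quantile normalization), and the median of the list was -0.65. Over all 21473 genes 20 passed as lower, or 33 under quantile normalization. In 9 of the 12 both primed libraries lay under both naive libraries, where 15.5% of all genes tested did so. At an unadjusted p under 0.05, 8 of the 12 were lower, where 572 of all genes were. The core repressor TOC1 was at 55.6 and 47.5 TPM in naive and 29.1 and 27.3 TPM in primed libraries (unadjusted p = 0.000491). ELF4, of the evening complex, was at 78.9 and 73.1 TPM in naive and 44.6 and 44.3 TPM in primed libraries (unadjusted p = 0.00721). GI, ZTL and CHE had log2 fold changes between 0.00 and 0.11, and their libraries overlapped. None of the 12 morning clock genes passed, with 2 at an unadjusted p under 0.05. They were LNK1, at 45.2 and 39.1 TPM in naive and 64.1 and 63.1 TPM in primed libraries, and LNK3, at 69.5 and 67.0 TPM in naive and 98.0 and 93.1 TPM in primed libraries. TOC1 and ELF4 are named here after their values were seen, as are GI, ZTL and CHE.

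WT seedlings showed the evening difference too: 7 of the 12 genes passed as lower in primed WT, where 5.67% of all genes passed as lower, with a median of -0.83. JMJ30 was at 42.4 and 60.8 TPM in naive and 8.21 and 7.72 TPM in primed WT libraries. No evening gene differed between pif7-1 and WT in its priming effect past the threshold in limma, with 3 of 12 at an unadjusted p under 0.05. In those 3 the pif7-1 effect was above the WT effect, where 3013 of 21473 genes had it so at that level. In pif7-1 shade 5 of the 12 passed as lower, where 5.41% of all genes did, and 1 as higher, where 6.65% did, with a median of -0.59. WT libraries of both histories came from the earlier block of records.

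**Figure D2:**
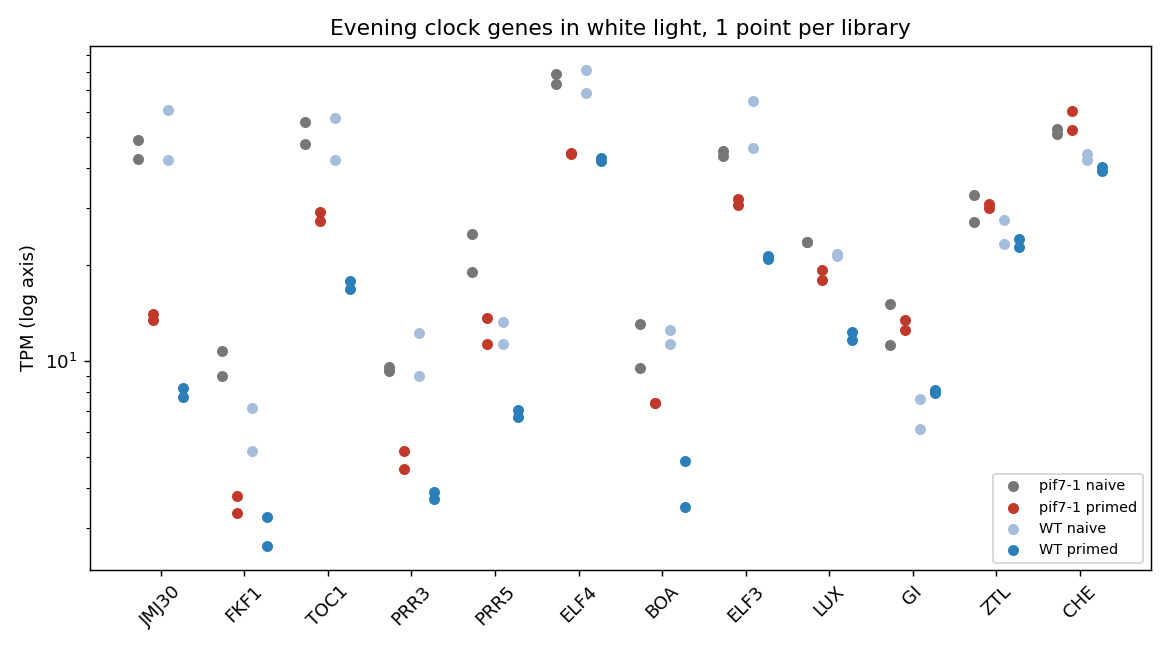
TPM (log axis) of the 12 evening clock genes tested in white light, 1 point per library, in naive and primed pif7-1 and WT. For JMJ30 the 2 primed pif7-1 points are at 13.4 and 14.0 TPM and the 2 naive points at 48.9 and 42.8 TPM, and in WT the primed points also lie under the naive ones.

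Other genes with clock or cold annotation were lower beside them. COR27, a cold-regulated gene that is also known as a repressor within the clock, was at 18.4 and 14.8 TPM in naive and 4.14 and 5.26 TPM in primed libraries (log2 fold change -1.63 ± 0.21 SE, adjusted p = 0.0031). AT4G33980, whose closest match in the table's own description is COR27, was at 13.7 and 11.9 TPM in naive and 4.39 and 4.22 TPM in primed libraries (log2 fold change -1.38 ± 0.16 SE, adjusted p = 0.0031). AT1G07050, which encodes a protein with a CCT motif as found in CONSTANS, was at 23.0 and 30.2 TPM in naive and 7.57 and 7.26 TPM in primed libraries (log2 fold change -1.70 ± 0.25 SE, adjusted p = 0.00756). Naive means were 3.54, 2.97 and 3.59 times the primed means in that order, and all 3 passed as lower in primed WT as well. The cold and CBF list held no passing member in 10 tested (median -0.35), with 2 at an unadjusted p under 0.05: KIN2, at 70.4 and 98.4 TPM in naive and 44.1 and 39.5 TPM in primed libraries, and KIN1, at 6.14 and 8.08 TPM in naive and 2.84 and 2.55 TPM in primed libraries.

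OEP6, a protein of the outer plastid envelope, was the most abundant gene among those that passed. It was at 733 and 841 TPM in naive and 284 and 229 TPM in primed libraries (log2 fold change -1.62 ± 0.22 SE, adjusted p = 0.00459). WT showed a like difference, from 1234 and 1044 TPM to 367 and 480 TPM, and so did pif7-1 in shade, from 993 and 1033 TPM to 256 and 273 TPM. KTI1, a Kunitz-type protease inhibitor, was at 98.0 and 87.3 TPM in naive and 23.59 and 27.6 TPM in primed libraries (log2 fold change -1.82 ± 0.29 SE, adjusted p = 0.0129). It had the lowest fold change among passing genes with primed levels above 0. In pif7-1 shade libraries KTI1 overlapped between histories, at 24.6 and 26.1 TPM in naive and 51.6 and 24.5 TPM in primed libraries.

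The class III peroxidase genes PER70 and PER71 were both lower. PER70 was at 24.9 and 19.3 TPM in naive and 6.03 and 8.13 TPM in primed libraries (log2 fold change -1.52 ± 0.20 SE, adjusted p = 0.00362). PER71 was at 145 and 92.0 TPM in naive and 37.8 and 47.6 TPM in primed libraries (log2 fold change -1.42 ± 0.26 SE, adjusted p = 0.0494). As near-related peroxidases they may share reads. In pif7-1 shade neither passed, and both overlapped between histories. The remaining genes lower without overlap of annotations were AT3G62550, an adenine nucleotide hydrolase-like gene, at 61.5 and 68.0 TPM in naive and 29.8 and 31.3 TPM in primed libraries, AT5G49015 at 16.0 and 19.3 TPM against 7.01 and 9.43 TPM, and AT1G78460 at 110 and 118 TPM against 67.4 and 76.4 TPM. AT1G78460 is the only one of these with the opposite call in pif7-1 shade, where it was at 51.9 and 57.2 TPM in naive and 96.8 and 87.2 TPM in primed libraries (log2 fold change 0.74, adjusted p = 0.000144).

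A further 4 genes passed as lower but overlap another annotated gene, so that reads may be shared, and are named after their values were seen. RBCX1, a chaperone for Rubisco assembly, was at 113 and 102 TPM in naive and 51.4 and 54.7 TPM in primed libraries. BT4, of the BTB and TAZ domain family, was at 19.2 and 20.1 TPM in naive and 9.09 and 9.87 TPM in primed libraries. AT4G32340 had a log2 fold change of -0.79 and AT5G66052 one of -0.68. All 4 passed as lower in primed WT, a call that BT4 lost under quantile normalization (adjusted p = 0.0546).

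Besides HFR1 and PIL1, 4 genes with no overlapping annotation were higher. AT4G23680 was at 172 and 167 TPM in naive and 363 and 315 TPM in primed libraries (log2 fold change 0.99 ± 0.17 SE, adjusted p = 0.0225). ALN, the allantoinase that opens the ring of allantoin during purine breakdown, was at 18.5 and 22.7 TPM in naive and 35.0 and 37.1 TPM in primed libraries (log2 fold change 0.78 ± 0.12 SE, adjusted p = 0.0111). In WT, ALN libraries of both histories lay between 20.3 and 23.1 TPM, and the effects differed (0.75, adjusted p = 0.0441), a call lost under quantile normalization (adjusted p = 0.0913). Both genes passed as higher in primed pif7-1 shade libraries also. QKY, which encodes a membrane protein of organ shaping, was listed at 0 in both naive libraries and at 1.61 and 1.60 TPM in both primed ones, and it was listed at 0 in all 4 pif7-1 shade libraries; it is named after its values were seen.

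HSD3, a hydroxysteroid dehydrogenase-like gene of the oil body family, was at 24.2 and 25.4 TPM in naive and 41.5 and 52.7 TPM in primed libraries (log2 fold change 0.89 ± 0.13 SE, adjusted p = 0.00942). In WT it moved the other way, from 29.2 and 36.8 TPM to 25.1 and 22.2 TPM (adjusted p = 0.0489), a call lost under quantile normalization (adjusted p = 0.112). The difference between pif7-1 and WT was 1.35 ± 0.19 SE (adjusted p = 0.00438). Its family member HSD2 was at 57.3 and 56.9 TPM in naive and 33.0 and 13.1 TPM in primed libraries, which did not pass, and it differed from WT by -1.71 (adjusted p = 0.041). HSD2 and HSD3 thus lay on opposite sides, and reads may be split between them.

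Genes with overlapping annotation made up the rest of the higher set. AT5G01210 was at 4.23 and 4.52 TPM in naive and 12 and 15.6 TPM in primed libraries (log2 fold change 1.45 ± 0.17 SE, adjusted p = 0.0031). WT went the other way, from 16.2 and 19.9 TPM to 6.35 and 5.98 TPM, and so did pif7-1 in shade, from 12.9 and 11.3 TPM to 5.65 and 6.33 TPM. ATPC2, a minor gamma subunit gene of the plastid ATP synthase, was at 0.02 and 0.31 TPM in naive and 2.24 and 2.40 TPM in primed libraries, and it was listed at 0 in all 4 pif7-1 shade libraries. For both genes the difference from WT passed.

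Another 4 passing genes were listed at 0 in both primed libraries and overlap another gene: AT3G14981, the long non-coding gene AT3G02535, AT1G55152 and the small nucleolar RNA gene AT2G08860. In naive libraries they were at 1.89 and 5.62 TPM, 3.12 and 4.45 TPM, 3.27 and 7.76 TPM, and 31.8 and 10.8 TPM. A value of 0 in such a file can be a failed estimate, and no fold is given. In pif7-1 shade AT2G08860 was the other way round, at 21.0 and 29.3 TPM in primed libraries and listed at 0 in both naive ones. AT1G55152 kept its white light order there, at 11.0 and 15.3 TPM in naive libraries and listed at 0 in both primed ones. In ref6-1 white light AT2G08860 was at 34.2 and 10.5 TPM in naive libraries, against a listed 0 and 2.93 TPM in primed ones. AT3G14981 is named after its values were seen.

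**Figure D3:**
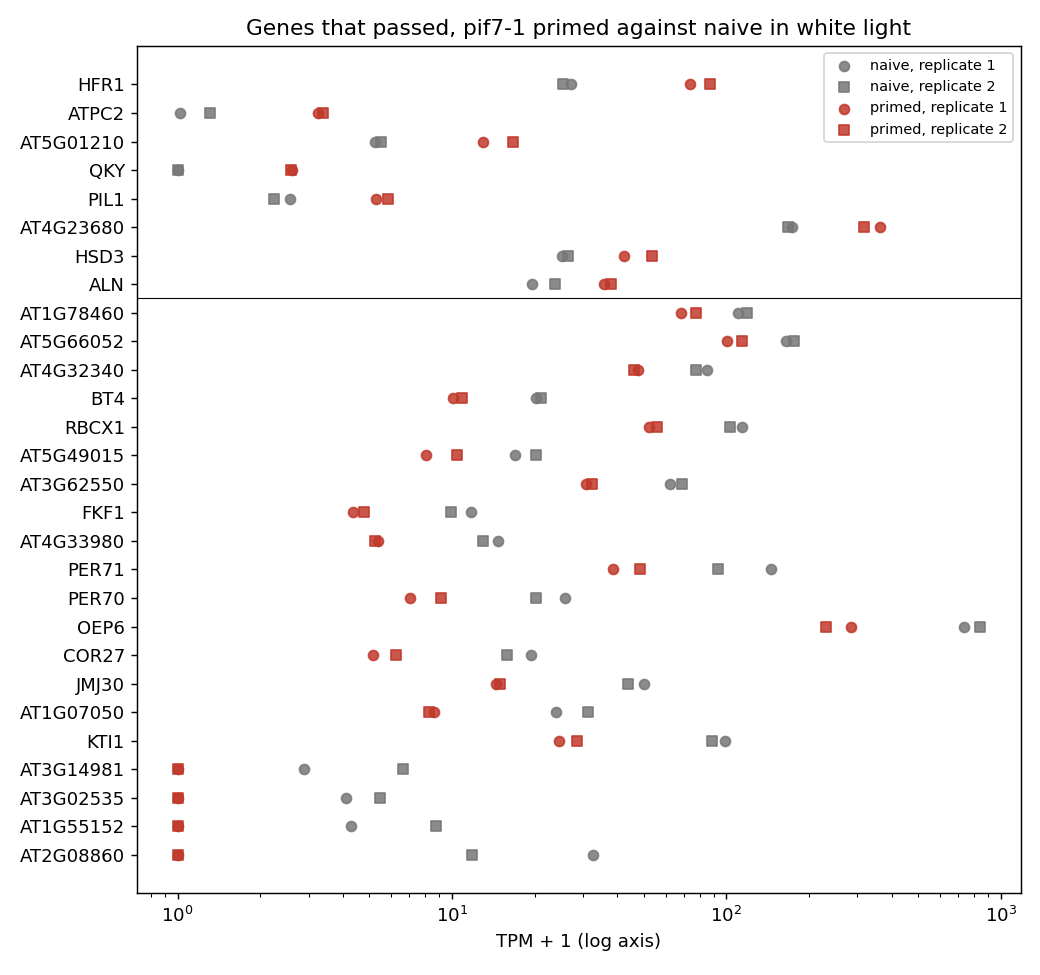
TPM + 1 (log axis) of the 28 genes that passed between primed and naive pif7-1 in white light, 1 row per gene ordered by fold change, circles for replicate 1 and squares for replicate 2. Primed points (red) lie to the right of naive points (grey) in the 8 upper rows and to the left in the 20 lower rows, with no overlap.

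Genes were also read by 42 lists of pathways and markers with 849 distinct members tested, of which 4 passed (HFR1, PIL1, JMJ30 and FKF1). Over all 21473 genes tested, 57.9% had a positive and 41% a negative log2 fold change, and 1359 had an unadjusted p under 0.05 in limma. In pif7-1 shade 48.6% were positive and 50.2% negative. No member passed in 39 lists. Several of these lists lay to one side all the same. Aliphatic glucosinolates are sulfur-rich defence compounds made from methionine, and all 14 of their synthesis and regulatory genes had both primed libraries above both naive ones, where 25.9% of all genes tested did so. The median was 0.84, none passed, and 11 had an unadjusted p under 0.05. CYP79F2, an entry enzyme of the pathway, was at 2.15 and 2.82 TPM in naive and 8.56 and 5.94 TPM in primed libraries (unadjusted p = 0.00111). CYP83A1, the next enzyme, was at 43.8 and 49.2 TPM in naive and 95.9 and 79.4 TPM in primed libraries (unadjusted p = 0.00219). In WT the list had a median of 0.53 with 7 of 14 at an unadjusted p under 0.05 and none passing, or 3 of 14 passing as higher under quantile normalization. All 7 were higher in primed WT, where 1154 of 21473 genes were at that level, and 921 passed as higher under quantile normalization. In pif7-1 shade the list did not lie to one side: the median was -0.06, 8 of 14 were negative, no gene had both primed libraries above both naive ones, and 0 passed (0 at an unadjusted p under 0.05). The effect in shade was below that in white light in 14 of 14 (median difference -0.80), with 0 passing and 6 at an unadjusted p under 0.05. At that level 1859 of 21473 genes had the shade effect below.

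Sulfate starvation genes, which supply sulfur to the same compounds, had a median of 0.60 in 12 genes, with 0 passing and 7 at an unadjusted p under 0.05. The sulfate transporter gene SULTR2;1 was at 43.4 and 29.3 TPM in naive and 70.2 and 68.5 TPM in primed libraries (unadjusted p = 0.00184). LSU2 was at 6.26 and 9.70 TPM in naive and 20.7 and 11.9 TPM in primed libraries (unadjusted p = 0.00992). In pif7-1 shade the sulfate list had a median of -0.14, with 1 of 12 passing as higher and 1 as lower (6.65% and 5.41% of all genes). Primed replicate 1 was higher than primed replicate 2 in the 4 genes named from these lists in white light. Mitotic genes had a smaller median (0.38), with 0 passing and 5 at an unadjusted p under 0.05. All 13 had both primed libraries above both naive ones, where 25.9% of all genes tested did so. CDKB2;1, a kinase gene of the G2 to M transition, was at 13.9 and 15.2 TPM in naive and 20.6 and 22.5 TPM in primed libraries. KN, the cytokinesis syntaxin KNOLLE, was at 24.5 and 28.2 TPM in naive and 42.8 and 36.1 TPM in primed libraries. The WT median for mitotic genes was -0.13, or 0.01 under quantile normalization. In pif7-1 shade the mitotic genes lay on the other side, with a median of -0.33, 10 of 13 negative and 2 passing as lower (5.41% of all genes).

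All 17 flavonoid genes tested had a positive log2 fold change (median 0.26), with 0 passing and 3 at an unadjusted p under 0.05, among them PAL1 at 28.9 and 26.5 TPM in naive and 42.3 and 37.0 TPM in primed libraries. In WT the flavonoid list had a median of -0.07, or 0.10 under quantile normalization, with 9 of 17 negative. In pif7-1 shade 16 of 17 were negative (median -0.44) and 5 passed as lower, where 5.41% of all genes did. Heat shock genes had a median of 0.32 with 0 of 12 passing and 5 at an unadjusted p under 0.05. HSP90.1, a cytosolic chaperone gene, was at 6.91 and 5.76 TPM in naive and 12.9 and 10.3 TPM in primed libraries, and HSP70 at 23.9 and 17.2 TPM and at 39.2 and 29.9 TPM. Both passed as higher in WT, at log2 fold changes of 0.93 and 0.78. The heat shock median in pif7-1 shade was 0.40, with 4 of 12 passing as higher, where 6.65% of all genes did. Carbon starvation genes lay on the lower side, with 11 of 12 negative (median -0.32), 0 passing and 1 at an unadjusted p under 0.05, the branched-chain amino acid enzyme gene IVD. In pif7-1 shade 11 of 12 were positive (median 0.60) and 6 passed as higher, where 6.65% of all genes did. The effect in shade was above that in white light in 12 of 12, with 4 passing, where 2.28% of all genes passed. FT, the mobile flowering signal, was at 1.33 and 1.41 TPM in naive and 7.84 and 3.33 TPM in primed libraries; it did not pass (unadjusted p = 0.000388).

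Indole glucosinolate and camalexin genes, the tryptophan branch of the same defence chemistry, were positive in 12 of 12 (median 0.52), with 0 passing and 0 at an unadjusted p under 0.05. Their median in pif7-1 shade was 0.58, with 9 of 12 positive and 0 passing (2 at an unadjusted p under 0.05, as were 5571 of 21473 genes). SUR1, which serves both branches, was at 28.4 and 30.01 TPM in naive and 42.5 and 35.4 TPM in primed libraries. B-box light signalling genes had a median of 0.28 with 0 of 16 passing and 6 at an unadjusted p under 0.05. BBX22 was at 39.8 and 35.6 TPM in naive and 23.0 and 30.9 TPM in primed libraries, against the direction of its list. Genes encoded in the chloroplast were negative in 54 of 72 (median -0.21), with 0 passing and 2 at an unadjusted p under 0.05, whereas their WT median was 0.64. Single libraries stood apart on both sides: summed plastid transcripts were at 9918 TPM in primed WT replicate 1, against 2729 TPM in replicate 2 and 2604 and 3199 TPM in naive WT, and at 3996 TPM in naive pif7-1 replicate 2, against 2182 TPM in replicate 1. Their part in these medians was not tested. Among 26 chromatin regulators the passing member was JMJ30, and the list had a median of 0.04. SAUR genes, small auxin-induced growth genes, had a median of 0.17 (0 of 24 passing, 3 at an unadjusted p under 0.05), and cytosolic ribosomal protein genes one of 0.06 (0 of 197 passing, 12 at an unadjusted p under 0.05).

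The hormone lists held no passing member. Medians were 0.16 for auxin synthesis (0 of 9 passing, 0 at an unadjusted p under 0.05), 0.07 for Aux/IAA and GH3 genes (0 of 18, 2), -0.05 for gibberellin (0 of 17, 3), -0.01 for brassinosteroid (0 of 14, 0) and -0.14 for cytokinin (0 of 11, 0). They were 0.22 for ethylene synthesis (0 of 7, 0), 0.21 for jasmonate (0 of 12, 3), 0.02 for JAZ and MYC2 genes (0 of 12, 2), 0.13 for abscisic acid and drought (0 of 16, 0) and 0.14 for salicylate and defence (0 of 10, 1). Both primed libraries lay above both naive ones in 6 of the 7 ethylene genes, where 25.9% of all genes tested did so. Of the 12 jasmonate genes 11 were positive, where 57.9% of all genes were. IAA19, an early auxin target, was at 8.98 and 7.28 TPM in naive and 11.0 and 13.0 TPM in primed libraries (log2 fold change 0.51 ± 0.16 SE). Light-harvesting genes had a median of 0.18 with 0 of 18 passing and 2 at an unadjusted p under 0.05. One of them, LHCB1.5, was listed at 0 in 3 libraries and at 6935 TPM in primed replicate 2, and its close copies may share its reads.

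**Figure D4:**
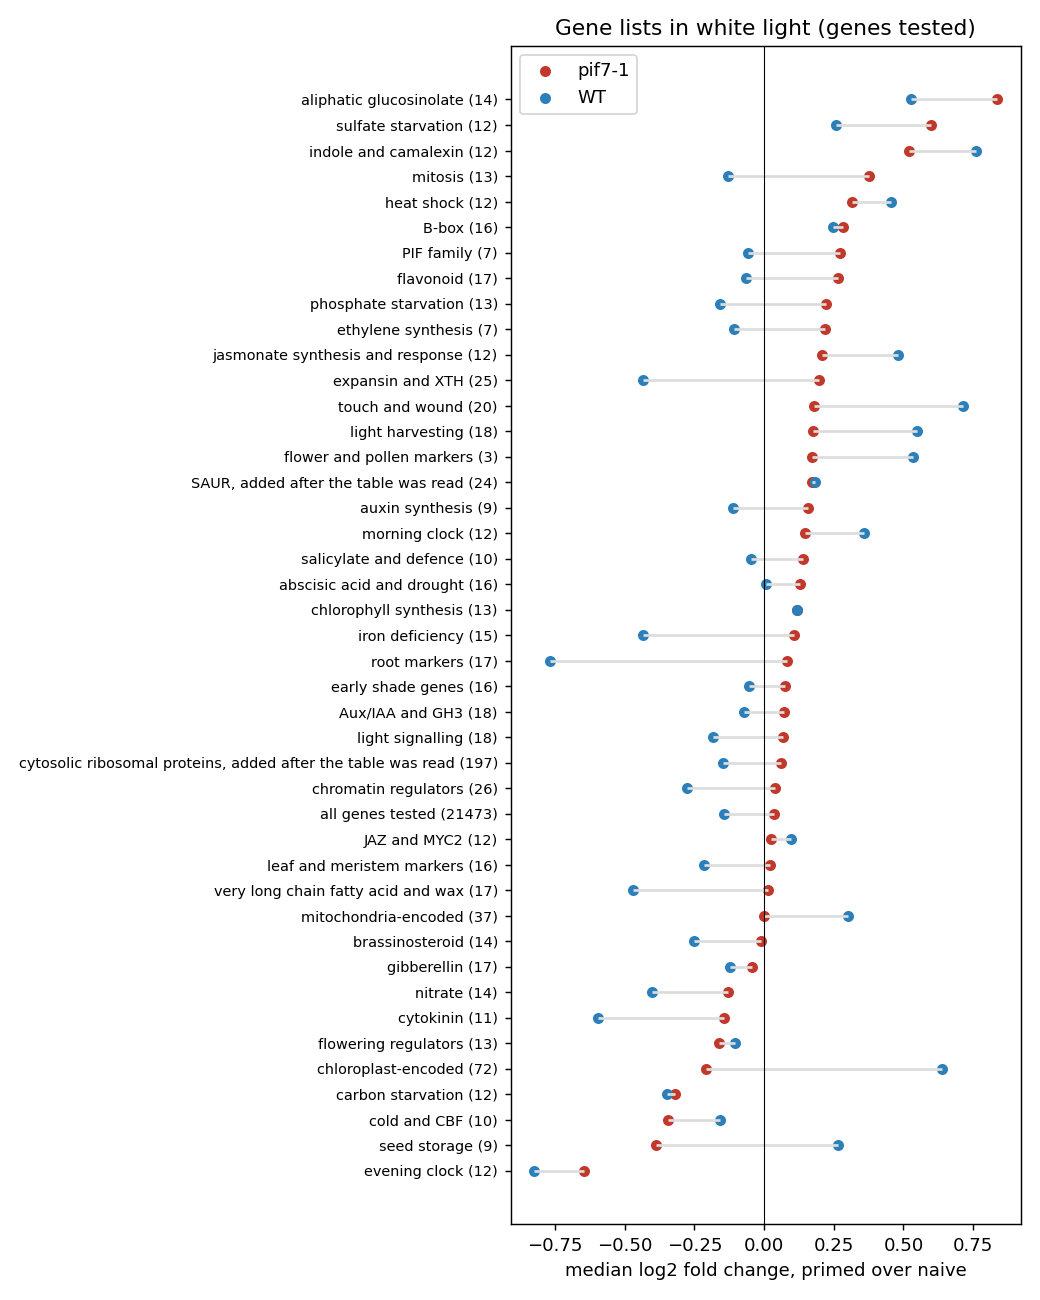
Median log2 fold change of primed over naive seedlings in white light for 42 gene lists and for all genes tested, in pif7-1 (red) and WT (blue), with the number of genes tested in parentheses. In pif7-1 the evening clock list is lowest at -0.65 and the aliphatic glucosinolate list highest at 0.84.

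WT seedlings differed more between histories: 1616 genes passed (7.53%), 398 higher (1.85%) and 1218 lower (5.67%), and quantile normalization turned that split to 921 and 888 while it moved the median of all genes from -0.14 to -0.001. The WT count was 476 without naive replicate 2, 756 without primed replicate 1 and 480 without primed replicate 2, and 0 with only the 4 WT libraries in limma (3567 at an unadjusted p under 0.05). In pif7-1 the 398 genes higher in primed WT had a median of 0.15, against 0.80 in WT, and 70.9% were positive where 57.9% of all genes were. The 1218 genes lower in primed WT had a median of 0.01 in pif7-1, against -0.68 in WT. WT values chose these genes, so the WT medians are a description. Read the other way, of the 20 genes lower in primed pif7-1, 14 passed as lower and 2 as higher in WT, and of the 8 higher genes, 2 passed as higher and 3 as lower. With WT under quantile normalization, 11 of the 20 passed as lower and 2 of the 8 as higher.

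The test of the difference in priming effect between the genotypes passed 277 genes (1.29%), 236 with the pif7-1 effect above the WT effect (1.1%) and 41 with it below (0.191%). Under quantile normalization the split was 162 and 120. Of the 236, 223 had passed in WT and 5 in pif7-1, and their medians were -0.84 in WT and 0.21 in pif7-1. The difference between the genotypes chose these genes, so both medians are a description. Leaving out any 1 of the 8 libraries lowered the count of 277, each time with 1 library left in a group. The cause of the drop was not tested. With the 8 libraries compared alone the count was 33.

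**Figure D5:**
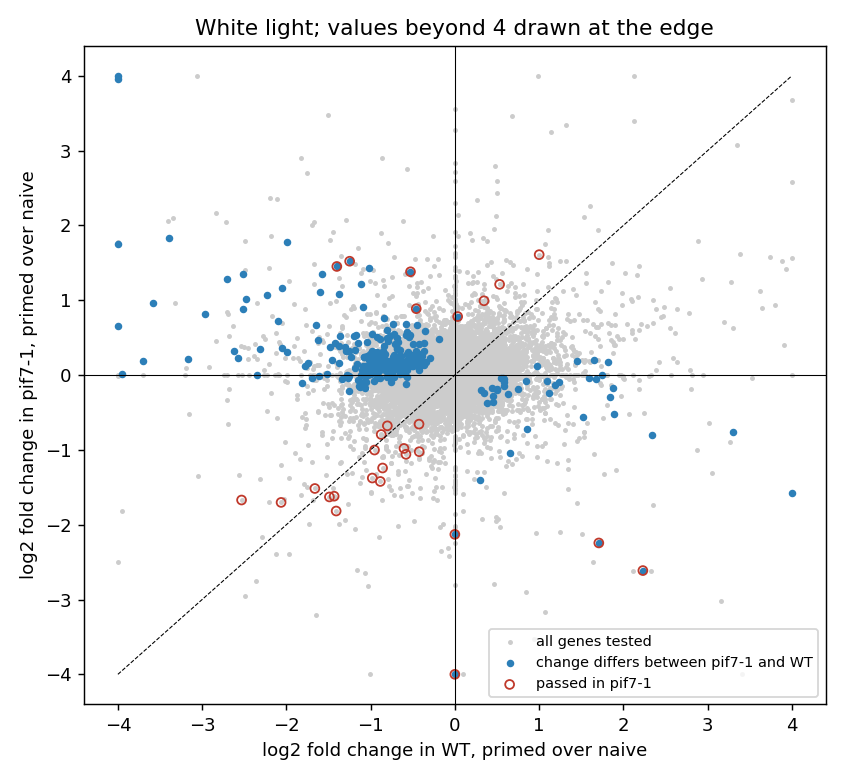
Log2 fold change of primed over naive seedlings in white light in pif7-1 (vertical axis) against WT (horizontal axis), 1 point per gene, with a dashed line where both are equal and values beyond 4 drawn at the edge. The 277 genes whose effect differed (blue), chosen by that difference, lie mostly at negative WT values near 0 in pif7-1. Of the 20 lower genes that passed in pif7-1 (open red circles), 16 are also negative in WT.

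Very-long-chain fatty acid and wax genes, which build the cuticle and its wax, were also read in both genotypes. In pif7-1 the median over 17 genes was 0.01, with 0 passing and 2 at an unadjusted p under 0.05, whereas 8 of 17 passed as lower in primed WT, where 5.67% of all genes did. For 5 genes, named after their values were seen, the difference itself passed: KCS20, CER4, CER2, ECR and KCR1. Over all genes it passed with pif7-1 above WT in 1.1%. Under quantile normalization 3 of the 17 did, where 162 of 21473 genes did. KCS20, a chain-elongating enzyme gene, was at 118 and 124 TPM in naive and 99.9 and 116 TPM in primed pif7-1 libraries, both primed values just under both naive values. In WT it was at 121 and 132 TPM in naive and 59.9 and 54.7 TPM in primed libraries (difference 0.97 ± 0.15 SE, adjusted p = 0.00937). CER2 was at 62.8 and 68.8 TPM in naive and 64.7 and 75.4 TPM in primed pif7-1 libraries, and at 76.3 and 72.8 TPM and 39.6 and 33.5 TPM in WT.

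Cell wall genes gave a like pattern. Of 25 expansin and XTH genes, which loosen walls, 0 passed in pif7-1 (6 at an unadjusted p under 0.05) and the median was 0.20, while 7 passed as lower in primed WT (4 under quantile normalization, and 5.67% of all genes), where the median was -0.43. The difference passed for XTH4, XTH16 and EXPA5, named after their values were seen, and under quantile normalization for 2 of the list. Over all genes the difference passed with pif7-1 above WT in 1.1%, or 162 of 21473 under quantile normalization. Under that setting 888 genes passed as lower in primed WT. XTH4 was at 634 and 618 TPM in naive and 656 and 842 TPM in primed pif7-1 libraries, and WT had 584 and 568 TPM in naive and 279 and 215 TPM in primed WT libraries (difference 1.48 ± 0.26 SE, adjusted p = 0.0145). XTH17 was at 5.85 and 5.77 TPM in naive and 12.3 and 14.5 TPM in primed pif7-1 libraries, which did not pass (unadjusted p = 0.00266).

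The largest differences from WT by the naming rule were in BGLU34 and BGLU35, the myrosinase genes also called TGG4 and TGG5, and in MLP-300B, AT5G54370, JAL9 and AT5G60530. In WT all 6 passed as lower in primed libraries, which is a description, since the difference from WT chose them. BGLU34 was at 11.9 and 2.60 TPM in naive and 0.10 and 0.00 TPM in primed seedlings of WT; in pif7-1 the naive values were 0.50 and 0.06 TPM and the primed values 2.3 and 1.88 TPM. MLP-300B was at 15.03 and 6.40 TPM in naive and 0.42 and 0.36 TPM in primed seedlings of WT, against 1.55 and 0.79 TPM and then 2.37 and 3.19 TPM in pif7-1. Summed root markers moved beside them in WT, from 138 and 141 TPM in naive to 83.4 and 77.0 TPM in primed libraries. There 2 of 17 passed as lower, where 5.67% of all genes did. In pif7-1 the sums overlapped, and the root list had a median of 0.08 with 0 of 17 passing (1 at an unadjusted p under 0.05). The part of root content in these differences, in bulk tissue where fewer cells and less RNA per cell cannot be told apart, was not tested.

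Other genes differed downward. MYBL2, a repressor of flavonoid synthesis, was at 106 and 91.8 TPM in naive and 81.4 and 99.7 TPM in primed pif7-1 libraries, and WT had 25.4 and 31.4 TPM in naive and 68.2 and 63.1 TPM in primed WT libraries (difference -1.32 ± 0.25 SE, adjusted p = 0.0241). Naive WT libraries were the lowest for this gene. AT1G52720, AT1G73480, AT1G09500 and ATTRX4, a thioredoxin gene, shared that direction of difference. Touch and wound genes had 0 of 20 passing in pif7-1 (1 at an unadjusted p under 0.05, median 0.18), against 8 passing as higher in WT (median 0.72), where 1.85% of all genes did. No member of that list passed limma's test of the difference, with 6 at an unadjusted p under 0.05. All 6 had the pif7-1 effect below the WT effect, where 624 of 21473 genes did at that level. ZAT10, a zinc finger repressor of stress responses, was at 2.42 and 2.02 TPM in naive and 4.63 and 3.02 TPM in primed pif7-1 libraries, and at 2.31 and 2.90 TPM and 11.3 and 12.2 TPM in WT (difference -1.26, adjusted p = 0.133).

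The pif7-1 shade libraries gave another reading of priming. They include none of the white light libraries but hold the same split by deposit. There 2590 genes passed (12.1%), 1428 higher (6.65%) and 1162 lower (5.41%). The count ranged from 939 without naive replicate 2 to 4364 without primed replicate 2, and was 1549 without naive replicate 1, 1072 without primed replicate 1 and 0 with those 4 libraries alone (3064 at an unadjusted p under 0.05). The priming effect differed between shade and white light for 489 genes (2.28%), or 47 without primed white light replicate 1 and 1833 without primed shade replicate 2. Of the 20 genes lower in white light, 6 passed as lower in shade and 2 as higher: JMJ30, FKF1, OEP6, AT4G33980, AT1G07050 and AT1G55152 were lower, and AT1G78460 and AT2G08860 higher. Of the 8 higher genes, HFR1, HSD3, ALN and AT4G23680 passed as higher in shade and AT5G01210 as lower.

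In ref6-1, whose naive libraries also belong to the later block, 4830 genes passed in white light (22.5%), or 2117 without naive replicate 1 and 2267 without primed replicate 2, so the pif7-1 count was the smallest of the 3 genotypes. The split was 1222 higher (5.69%) and 3608 lower (16.8%), or 2303 and 2485 under quantile normalization. The seed storage list had a median of 2.22 in ref6-1, with 4 of 9 passing as higher, against a median of -0.39 in pif7-1. Single members of the chromatin and flowering lists reached log2 fold changes of 3.14 and 4.45, against highest values of 0.20 and 1.385 in pif7-1. Whether naive and primed ref6-1 libraries differ in more than history and deposit was not tested. Of the 20 genes lower in pif7-1, 16 passed as lower in ref6-1. FKF1 was at 28.3 and 30.7 TPM in naive and 6.46 and 6.75 TPM in primed ref6-1 libraries, and COR27 at 42.1 and 48.6 TPM and at 7.01 and 8.10 TPM. For 2366 genes (11%) the priming effect differed between pif7-1 and ref6-1, 1824 with pif7-1 above and 542 below, or 1263 and 1099 under quantile normalization, and 888 without pif7-1 naive replicate 2.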

How the data were processed

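RNA of whole seedlings was sequenced on Illumina libraries, per the labels' protocols. The authors deposited 1 table of TPM values with 33026 rows. FastQC, cutadapt, STAR, HTSeq and DESeq2 are listed in the submitters' processing notes with the build TAIR10, and no versions or roles. Gene lengths and strandedness are not given in the sources used here. Depth per library is unknown, so no counting error is given, and 193 rows were loci without a gene identifier.

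Values were analysed as log2(TPM + 1), which understates changes of low genes, with limma 3.58.1 in R 4.3.3, which was tested on simulated data first. The test took genes that reached 1 TPM in 2 or more libraries. A model of 12 group means over all 24 libraries left 12 residual degrees of freedom, with a variance trend. The threshold was 0.05 after Benjamini-Hochberg adjustment within a comparison. Replicate numbers did not pair the samples.

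The named genes were, among genes that passed, were separated by library, nuclear, protein coding and free of overlap, with a mean of at least 5 TPM in 1 group, the 12 most changed each way; the 3 most changed each way of any kind; up to 4 passing members of each list or the 2 with the smallest p; PIF7, REF6, PIFs and early shade genes; and 6 each way for the difference from WT, separated in at least 1 genotype. Members and lists were chosen with earlier results of these data known, and the SAUR and ribosomal protein lists were added after the table was read. Names and overlaps came from the files and a TAIR10.1 annotation, so no positions or sequences are printed, and planned promoter motif counts were not run. Alternatives were other pseudocounts and filters, quantile normalization, nuclear protein-coding genes only, a replicate block, no variance trend, fewer libraries and the omission of each library.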

Additional observations from a re-analysis of the deposited data

Results flagged for a closer look

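The priming effect in white light differed between pif7-1 and WT for 277 genes, between white light and shade within pif7-1 for 489 genes, and between pif7-1 and ref6-1 for 2366 genes, each by limma's test of the difference at an adjusted p under 0.05. The differences from ref6-1 include libraries of both blocks of records on each side, while WT libraries belong to 1 block.

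Among named genes, differences of log2 fold change with pif7-1 above WT were 17.11 for LHCB1.5, 3.99 for BGLU34, 3.79 for MLP-300B, 3.499 for BGLU35, 3.41 for AT5G54370, 3.21 for JAL9, 2.85 for AT5G01210, 2.82 for AT5G60530 and 2.77 for ATPC2. LHCB1.5 was listed at 0 in 5 of the 8 libraries behind its value. Smaller ones were 1.43 for the jasmonate regulator MYC2, 1.35 for HSD3, 1.22 for the indole glucosinolate enzyme gene CYP79B3, 1.06 for PHO1;H1, 0.84 for ACO4, 0.75 for ALN and 0.68 for the ribosomal protein gene RPL27C.

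With pif7-1 below WT they were -1.32 for MYBL2, -1.33 for AT1G73480, -1.36 for AT1G09500, -1.71 for HSD2, -2.13 for AT1G52720 and -2.41 for ATTRX4. AT3G02535 at -3.95, AT2G08860 at -4.30 and AT1G55152 at -4.84 were listed at 0 in both primed pif7-1 libraries.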

How the results depend on the processing

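None of the 28 passing genes reversed its direction under an alternative that gave it a value. That does not extend to named genes that did not pass, where small changes between overlapping libraries can change sign. The 28 genes between primed and naive pif7-1 became 26 and 27 with pseudocounts of 0.1 and 5, 26 with a minimum of 5 TPM, 27 with no filter beyond a TPM above 0, 42 under quantile normalization, 35 with nuclear protein-coding genes only, 25 with no variance trend and 32 without the 8 ref6-1 libraries. Leaving out 1 library gave 10 to 21 genes. With only the libraries of the compared groups, limma passed 0 in pif7-1 white light, 0 in WT and 0 in pif7-1 shade (2077, 3567 and 3064 at an unadjusted p under 0.05), 1188 in ref6-1, 33 for the difference between pif7-1 and WT and 5 for that between shade and white light. No gene of the 28 kept its call in every alternative, and AT5G01210, AT4G33980 and AT3G14981 lost it only there. Of 110 named genes that did not pass, 3 passed in at least 1 alternative (HSD2, FT and LHCB1.5). The difference from WT became 176 genes with no variance trend and 150 without the ref6-1 libraries, and that between shade and white light 238, 263 and, under quantile normalization, 854. Leaving out 1 library gave 476 to 2240 for WT, 24 to 168 for the difference from WT, 939 to 4364 for pif7-1 shade, 47 to 1833 for shade against white light, 2117 to 3273 for ref6-1 and 888 to 1902 for the difference from ref6-1. The causes were not tested.

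Replicate numbers did not pair the samples (correlation of deviations 0.0537 in pif7-1 and -0.0753 in WT), and the replicate block gave 30 genes. TPM keeps no depth, so limits of detection cannot be given.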
